A study of Mus musculus with 16 samples.

Results

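The mitochondrial carrier family SLC25 was followed in the medial prefrontal cortex (mPFC) of mice after Kdm7a knockdown and morphine withdrawal. Its members were taken by name, as every known gene of the table with an Slc25a number or called Ucp1, Ucp2 or Ucp3, which gave 50 genes of 26625 table entries. Within the family, Slc25a12 and Slc25a39 were set against the rest. Slc25a12 was chosen by its measured change from Kdm7a-shRNA + Saline to Kdm7a-shRNA + Morphine mice, and Slc25a39 was selected on its measured change from Ctrl + Saline to Kdm7a-shRNA + Saline mice. The values of these genes in any comparison that uses the choosing mice are therefore a description without a test.

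RNA came from 16 male C57BL/6 mice, 8 to 10 weeks old, and was read as full-length cDNA on the Nanopore platform. With the control virus there were 3 saline mice (Ctrl + Saline) and 4 morphine mice (Ctrl + Morphine), and with the hairpin virus 5 saline mice (Kdm7a-shRNA + Saline) and 4 morphine mice (Kdm7a-shRNA + Morphine). All 16 mice had received an adeno-associated virus in the mPFC and had gone through place conditioning for 10 days. Morphine mice received 10 mg/kg of morphine and saline on alternate days, and saline mice received saline. Tissue was collected on day 17, the 7th day of withdrawal, directly after the last place preference test. The short hairpin RNA was driven by the U6 promoter, which is active in neurons and glia alike, the virus also carried EGFP, and no sorting of infected cells is described. Between 6596991 and 12418112 reads per mouse were counted, and the family took 0.328% to 0.424% of them.

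Kdm7a itself, the target of the hairpin, had a mean of 9.42 ± 0.353 normalized CPM (SD, n = 3) in Ctrl + Saline mice and 5.55 ± 0.571 (SD, n = 5) in Kdm7a-shRNA + Saline mice, a log2 fold change of −0.76 (SE 0.204, edgeR adjusted p = 0.0153). Under morphine the means were 7.72 ± 1.13 (SD, n = 4) and 4.94 ± 1.53 (SD, n = 4), a log2 fold change of −0.67 (SE 0.206, edgeR adjusted p = 0.0506) that missed the threshold, with overlapping mice. Normalized CPM is the count of a gene relative to the total count of its mouse (CPM) after scaling with edgeR's TMM factors. The neuronal, astrocyte, oligodendrocyte and microglial markers listed for a check of the tissue were counted in every mouse.

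SLC25 proteins carry metabolites, nucleotides, cofactors and ions across the inner mitochondrial membrane, which is otherwise closed to them. In the brain the family is known for the malate-aspartate shuttle, which brings reducing equivalents from glycolysis into mitochondria and in which aralar, the product of Slc25a12, exchanges aspartate for glutamate. SLC25A39 brings glutathione into the mitochondrial matrix, and the uncoupling proteins let ions leak back across the membrane.

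Slc25a12 and Slc25a39 differ in the sequence before their RefSeq start sites. The 250 bases upstream of that start are shown for both genes because the report sets them against the family. They were read from RefSeq promoter windows on GRCm38.p6, on the gene's own minus strand, and capitals mark CG dinucleotides. Slc25a12 lies at chr2:71271063-71367749 and its stretch at chr2:71367756-71368005. Slc25a39 lies at chr11:102402985-102407946 and its stretch at chr11:102407518-102407767. For Slc25a39 the starts of RefSeq and GENCODE differ: the stretch precedes the RefSeq start but lies inside the GENCODE span of the gene, in an intron of its farthest-reaching transcript, and its last bases fall in the first exon of another.
Slc25a12: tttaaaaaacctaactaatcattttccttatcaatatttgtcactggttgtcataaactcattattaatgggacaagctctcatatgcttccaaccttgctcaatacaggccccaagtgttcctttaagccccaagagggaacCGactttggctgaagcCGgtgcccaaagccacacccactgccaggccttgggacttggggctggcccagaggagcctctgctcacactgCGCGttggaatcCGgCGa
Slc25a39: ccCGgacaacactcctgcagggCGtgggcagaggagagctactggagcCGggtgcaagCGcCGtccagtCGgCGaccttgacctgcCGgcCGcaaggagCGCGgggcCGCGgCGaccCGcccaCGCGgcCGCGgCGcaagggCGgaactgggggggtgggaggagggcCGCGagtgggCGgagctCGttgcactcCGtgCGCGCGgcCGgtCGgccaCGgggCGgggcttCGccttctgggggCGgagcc

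The stretch of Slc25a12 held 6 CG dinucleotides and was 49.6% G or C, whereas that of Slc25a39 held 35 and was 77.2% G or C. The median was 6 CG dinucleotides and 52.4% over 32851 windows of all genes and 12 and 57.6% over 49 windows of 39 family members that matched the RefSeq table. Among the other members described below, Slc25a18 had 2 CG dinucleotides, Slc25a10 had 9, Ucp2 and Slc25a30 had 16 each and Slc25a3 had 27. The stretches of Slc25a18, Slc25a3 and Ucp2 also reach into the GENCODE span of their gene. Motifs were searched on both strands of the 300-base windows. The CARE core TGATGNAA, a letter pattern bound by ATF4, occurred in 3.97% of all windows and in 0 of the 49 family windows. The cAMP response element TGACGTCA occurred in 1.79% of all windows and in 2 family windows, of Slc25a25 and Slc25a36. The NRF1 core, which reads GCGC, any base and then TGCGC, occurred in 4.60% of all windows and in 2 family windows, of Slc25a3 and Slc25a31. These matches describe the letters of the windows and are not binding sites.

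Slc25a12 stood apart from the other members. Its level was 105, 190 and 156 normalized CPM in the 3 Ctrl + Saline mice and 86.3, 128, 115 and 67.5 in the 4 Ctrl + Morphine mice. It was 39.8, 64.3, 61.9, 66.6 and 40.0 in the 5 Kdm7a-shRNA + Saline mice and 177, 165, 117 and 149 in the 4 Kdm7a-shRNA + Morphine mice. Every Kdm7a-shRNA + Saline mouse lay below every mouse of the 3 other groups, by a narrow margin against the lowest Ctrl + Morphine mouse, and the Kdm7a-shRNA + Morphine mice lay within the range of the Ctrl mice. In group means this was 150 ± 42.6 (SD, n = 3), 99.3 ± 27.5 (SD, n = 4), 54.5 ± 13.5 (SD, n = 5) and 152 ± 26.1 (SD, n = 4) normalized CPM in the same order. The fitted log2 fold change was −1.46 (SE 0.229) for knockdown under saline, 1.48 (SE 0.215) for morphine under knockdown and 0.61 (SE 0.226) for knockdown under morphine, all given as a description because they share mice with the choice of the gene.

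The comparison of Slc25a12 that the choice did not use was morphine under the control virus. There it had a log2 fold change of −0.60 (SE 0.241, edgeR adjusted p = 0.332), which did not pass, and the groups overlapped. Slc25a13, the other aspartate/glutamate carrier (citrin), was counted with only 6 to 50 reads per mouse and passed in none of the 4 comparisons. Its log2 fold change was 0.48 (SE 0.403) for knockdown under saline and 1.01 (SE 0.384, edgeR adjusted p = 0.105) under morphine.

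Slc25a39 was 12.3, 15.7 and 11.9 normalized CPM in Ctrl + Saline mice and 38.0, 38.3, 40.2, 26.8 and 33.0 in Kdm7a-shRNA + Saline mice. The 2 groups did not overlap, with means of 13.3 ± 2.09 (SD, n = 3) and 35.2 ± 5.43 (SD, n = 5), and the log2 fold change of 1.40 (SE 0.185) is the description on which the gene was chosen. Under morphine, in mice that the choice did not use, Slc25a39 was 18.0, 22.3, 14.9 and 20.3 normalized CPM with the control virus and 25.4, 31.9, 36.4 and 25.2 with the Kdm7a hairpin. All 4 knockdown mice lay above all 4 Ctrl mice, and the gene rose by a log2 fold change of 0.66 (SE 0.169, edgeR adjusted p = 0.022). That call was lost without Kdm7a-shRNA + Morphine replicate 3 (0.55, adjusted p = 0.0873) and without Ctrl + Morphine replicate 1, 3 or 4, and with library size only the gene was not called either (0.55, adjusted p = 0.037, a fold under 1.5). Slc25a40, its closest relative, was not called. Its log2 fold change was 0.18 (SE 0.169, 95% interval −0.15 to 0.51) under saline and 0.23 (SE 0.163, 95% interval −0.09 to 0.55) under morphine.

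**Figure D1:**
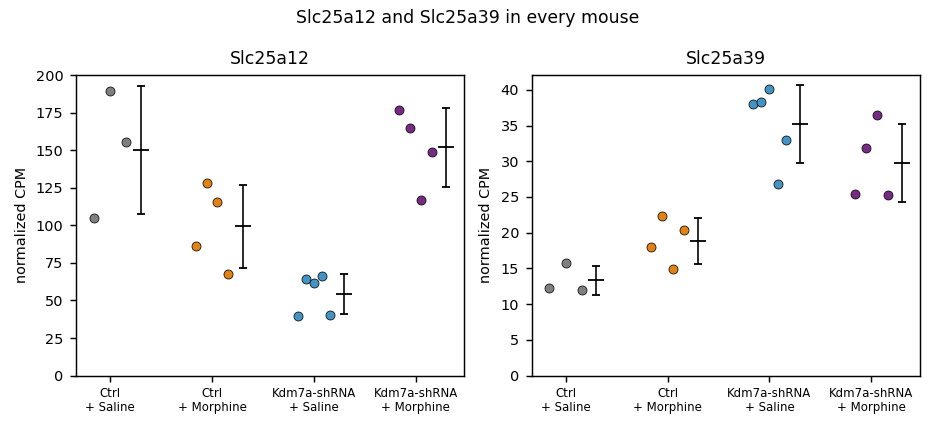
Slc25a12 (left) and Slc25a39 (right) in normalized CPM, 1 point per mouse, by group, with the mean and SD as a bar to the right of each group. For Slc25a12 the 5 Kdm7a-shRNA + Saline mice sit at 39.8 to 66.6, below all other mice, and for Slc25a39 both knockdown groups, at 25.2 to 40.2, sit above both Ctrl groups, at 11.9 to 22.3.

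Of the 50 members, 41 had enough counts for the test. Knockdown under saline changed 7 of them at an adjusted p under 0.05 and a fold of at least 1.5. Slc25a3, Slc25a10, Slc25a18, Slc25a30, Slc25a39 and Ucp2 rose and Slc25a12 fell. Over all 18826 tested genes 7.43% were higher and 9.31% lower, and among the 14444 tested known genes 9.12% and 2.98%. Without Slc25a12 and Slc25a39, 5 of 39 members (12.8%) were higher and 0 lower. The median log2 fold change was 0.18 over the 41 members, 0.015 over all tested genes and 0.10 over the known genes.

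Knockdown under morphine compared 8 mice, none of them in the saline comparison. It changed 4 of the 41 members, all higher, namely Slc25a10, Slc25a18, Slc25a39 and Ucp2. The background was 2.86% higher and 4.83% lower over all tested genes, and 3.43% and 1.29% among known genes. Without Slc25a12 and Slc25a39, 3 of 39 members (7.69%) were higher. All 4 were among the 7 members called under saline, which is 57.1% of the 7 and 100% of the 4. The median was 0.063 over the members, −0.0045 over all genes and 0.045 over known genes. Without Slc25a12 and Slc25a39 the median of the members was 0.049. With library size alone, which shifted the median of all genes by −0.11, 3 members were higher and 2 lower under morphine.

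Unadjusted p-values under 0.05 were found for 11 of the 41 members for knockdown under saline, against 34.7% of all tested genes, and for 9 under morphine, against 25.5%. The members' shares, 26.8% and 22.0%, were below both.

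**Figure D2:**
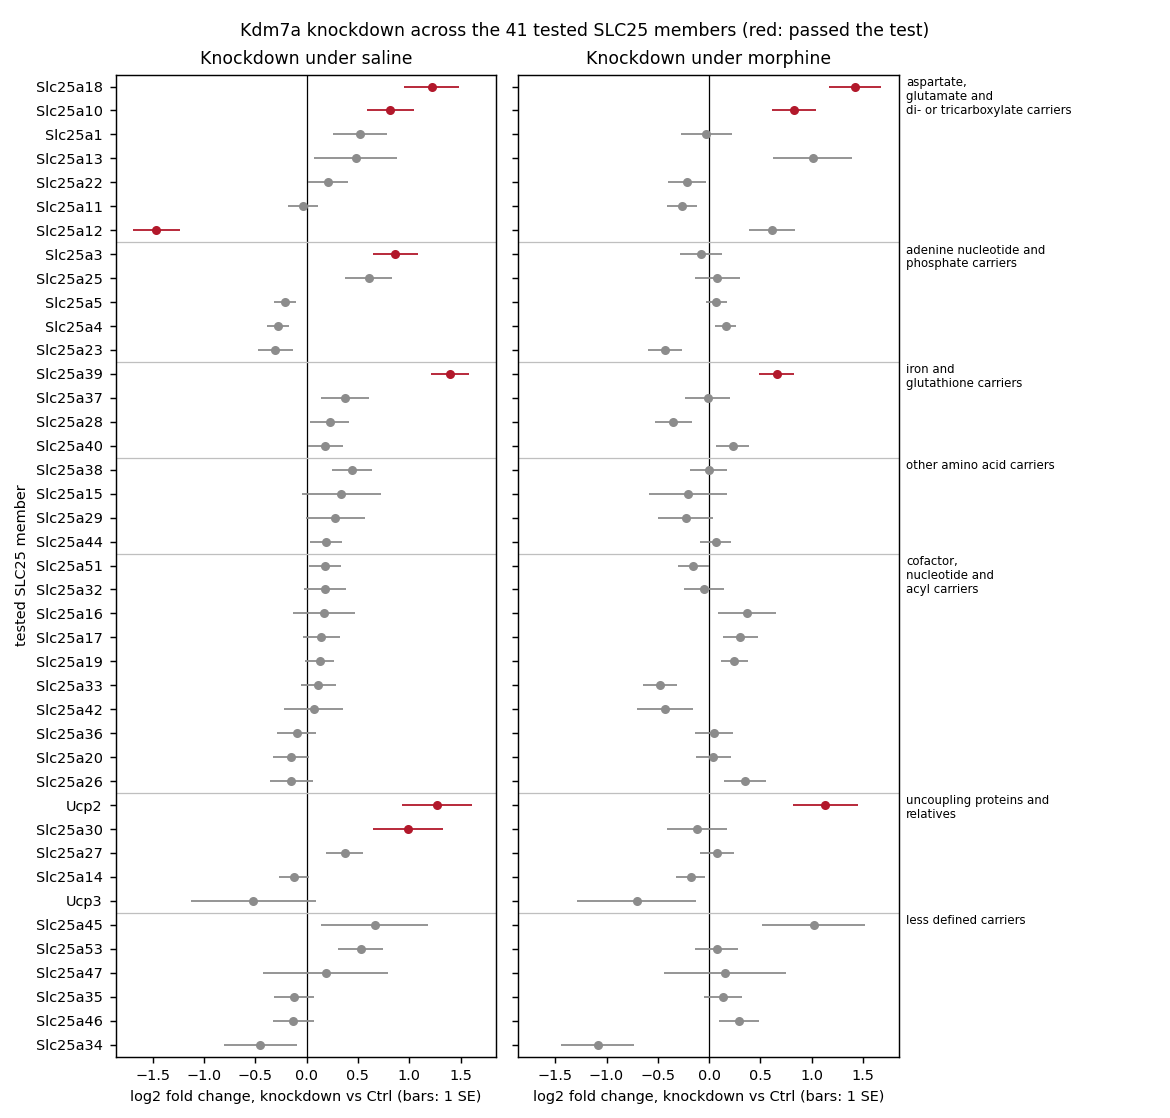
Log2 fold change of the 41 tested members, Kdm7a-shRNA against Ctrl, with bars of 1 SE, under saline (left) and morphine (right), in blocks of members with like roles. The 7 members that passed under saline and the 4 under morphine are red, and most grey points lie within 0.6 of 0.

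The aspartate, glutamate and di- or tricarboxylate carriers move the acids of the malate-aspartate shuttle and the citric acid cycle. Of 7 tested, 2 rose and 1 fell with knockdown under saline and 2 rose under morphine. Slc25a18, the glutamate carrier GC2, was 20.6, 18.0 and 20.9 normalized CPM in Ctrl + Saline mice and 39.2, 49.0, 60.5, 31.9 and 49.7 in Kdm7a-shRNA + Saline mice. It was 14.6, 15.2, 16.9 and 16.2 in Ctrl + Morphine mice and 37.8, 27.9, 72.5 and 29.4 in Kdm7a-shRNA + Morphine mice. All 9 knockdown mice lay above all 7 Ctrl mice. It rose by a log2 fold change of 1.22 (SE 0.269, edgeR adjusted p = 0.00532) under saline and 1.42 (SE 0.255, edgeR adjusted p = 0.00435) under morphine. Without Kdm7a-shRNA + Morphine replicate 3, the highest mouse, the second value was 1.01 (adjusted p = 0.0112).

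Slc25a10, the dicarboxylate carrier, exchanges malate and succinate for phosphate. It was 7.14, 8.20 and 4.90 normalized CPM in Ctrl + Saline mice and 8.39, 11.4, 13.2, 12.1 and 14.7 in Kdm7a-shRNA + Saline mice. It was 7.79, 8.43, 7.79 and 6.53 in Ctrl + Morphine mice and 13.8, 11.2, 18.6 and 10.3 in Kdm7a-shRNA + Morphine mice. The lowest Kdm7a-shRNA + Saline mouse lay just above the highest Ctrl + Saline mouse, and under morphine the groups were wider apart. It rose by a log2 fold change of 0.82 (SE 0.228, edgeR adjusted p = 0.0183) under saline and 0.82 (SE 0.213, edgeR adjusted p = 0.0229) under morphine. The call was lost without Ctrl + Saline replicate 3 (0.61, adjusted p = 0.121) and, under morphine, without Kdm7a-shRNA + Morphine replicate 3 (0.62, adjusted p = 0.102), Kdm7a-shRNA + Morphine replicate 1 or Ctrl + Morphine replicate 1, 3 or 4. Slc25a1, Slc25a11 and Slc25a22, which carry citrate, 2-oxoglutarate and glutamate, did not pass, with log2 fold changes of 0.52, −0.04 and 0.21 under saline.

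Of 5 tested uncoupling proteins and relatives, 2 rose with knockdown under saline and 1 under morphine. Ucp2 was 30.3, 27.8 and 39.7 normalized CPM in Ctrl + Saline mice and 55.5, 95.9, 103, 49.6 and 89.5 in Kdm7a-shRNA + Saline mice. It was 34.0, 19.8, 29.8 and 31.5 in Ctrl + Morphine mice and 47.3, 43.0, 120 and 41.1 in Kdm7a-shRNA + Morphine mice. All 9 knockdown mice lay above all 7 Ctrl mice, and Kdm7a-shRNA + Morphine replicate 3, also the deepest library, lay far above the other mice of its group. Ucp2 rose by a log2 fold change of 1.27 (SE 0.340, edgeR adjusted p = 0.015) under saline and 1.13 (SE 0.318, edgeR adjusted p = 0.0329) under morphine. Without that mouse the second value was 0.61 (adjusted p = 0.165), the call was also lost without any 1 of the 4 Ctrl + Morphine mice, and under saline it was lost without Ctrl + Saline replicate 1 or 2. Under morphine Ucp2 was also not called when the compared groups were fitted alone (adjusted p = 0.0769) or with known genes only (adjusted p = 0.0631).

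Slc25a30, the kidney mitochondrial carrier, was counted with 6 to 34 reads per mouse. It was 0.793, 0.976 and 1.59 normalized CPM in Ctrl + Saline mice and 2.07, 2.65, 2.49, 1.80 and 2.11 in Kdm7a-shRNA + Saline mice. It was 2.90, 1.92, 2.92 and 2.14 in Ctrl + Morphine mice and 1.38, 1.56, 2.92 and 3.09 in Kdm7a-shRNA + Morphine mice. The Ctrl + Saline mice lay below the mice of the 2 neighbouring groups, Ctrl + Morphine and Kdm7a-shRNA + Saline, and the 2 morphine groups overlapped. Under saline it rose by a log2 fold change of 0.99 (SE 0.341, edgeR adjusted p = 0.0482), just past the threshold, and passed under none of the 7 other settings that kept the gene and in 1 of 8 fits with a mouse left out. The brain uncoupling relatives Slc25a14 and Slc25a27 and the low-count Ucp3 did not pass, with log2 fold changes of −0.12, 0.37 and −0.52 under saline.

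Ucp2 and Slc25a18 were set beside markers of glia. In bulk tissue, more cells of a type and more RNA per cell cannot be told apart. Of 6 microglia markers, 5 were higher with knockdown under saline, where 7.43% of all tested and 9.12% of known genes were, and 3 under morphine, where 2.86% and 3.43% were. Their summed level was 561 to 671 normalized CPM in Ctrl + Saline, 311 to 601 in Ctrl + Morphine, 803 to 2306 in Kdm7a-shRNA + Saline and 556 to 2183 in Kdm7a-shRNA + Morphine mice. The mouse with the highest Ucp2 had a microglia sum of 2183, and the mouse with the lowest had the lowest sum, 311. The mouse with the highest sum, 2306, had a Ucp2 of 103. Kdm7a-shRNA + Morphine replicate 4 had a sum of 556, just below all Ctrl + Saline mice, and a Ucp2 of 41.1, just above all of them. Within Kdm7a-shRNA + Morphine the mice had the same order in Ucp2 and in the sum. Replicates 2 and 5 changed places in Kdm7a-shRNA + Saline, 3 and 4 in Ctrl + Morphine and 1 and 3 in Ctrl + Saline. Of 7 astrocyte markers, 2 were higher under saline and 0 under morphine, where Aldh1l1 had a log2 fold change of 1.03 (edgeR adjusted p = 0.0571). Their summed level was 9228 to 11680 in Ctrl + Saline and 8669 to 10324 in Kdm7a-shRNA + Saline mice, and 7449 to 9125 and 8346 to 10248 in the 2 morphine groups. Most of that sum was 1 gene, Aldoc, with means of 9569 ± 1115 (SD, n = 3) and 8217 ± 514 (SD, n = 5) in the saline groups, so the sum does not show the other markers. Aldh1l1 had means of 29.7 ± 3.40 (SD, n = 3) and 64.1 ± 26.6 (SD, n = 5) under saline and 31.6 ± 3.86 (SD, n = 4) and 64.2 ± 38.3 (SD, n = 4) under morphine. Gfap had means of 163 ± 59.6 (SD, n = 3) and 420 ± 171 (SD, n = 5) under saline. Gja1, by contrast, had means of 83.9 ± 14.6 (SD, n = 3) and 81.4 ± 20.5 (SD, n = 5) there. The 7 astrocyte markers were mixed under saline, with a median log2 fold change of 0.29 and a range of −0.36 to 1.36. Under morphine the median was 0.57 and the range 0.09 to 1.03. No marker of either list was at 0 in any mouse. Endothelial and mural markers were higher for 3 of 6 under saline and 1 under morphine, and the precursor marker Olig1 was higher under saline, 1 of 4. Of 5 inhibitory neuron markers, Slc32a1 (1.10) and Pvalb (0.68) were higher and Vip (−0.92) and Gad2 (−0.63) lower under saline, and Pvalb (0.81) was higher under morphine. Of 5 excitatory neuron and 6 oligodendrocyte markers, 0 passed by edgeR. The excitatory markers had a median log2 fold change of −0.43 (−0.73 to 0.08) under saline and −0.37 (−0.49 to −0.22) under morphine. For the oligodendrocyte markers it was 0.44 (−0.06 to 0.62) and 0.29 (0.21 to 0.64). The part of these markers in the levels of Ucp2 and Slc25a18 was not tested.

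**Figure D3:**
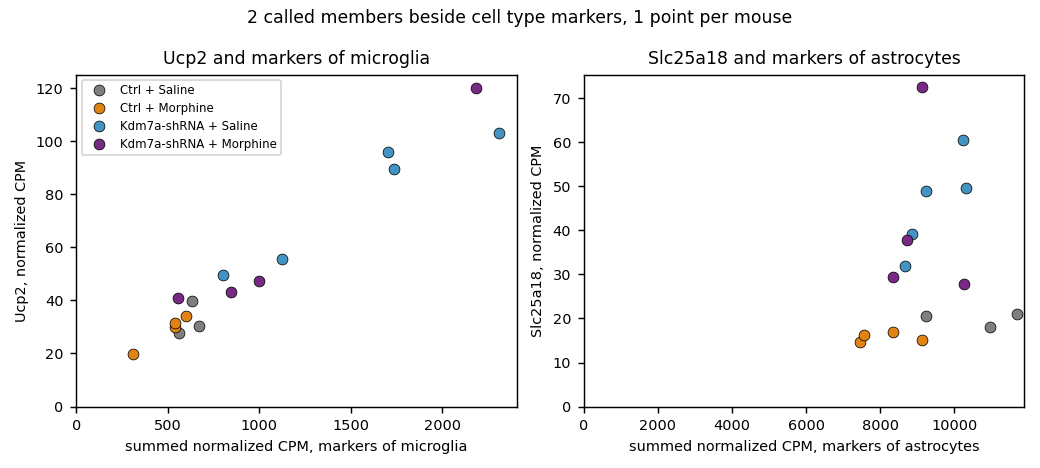
Ucp2 against the summed level of 6 microglia markers (left) and Slc25a18 against that of 7 astrocyte markers (right), both in normalized CPM, 1 point per mouse, coloured by group. Ucp2 spans 19.8 to 120 and the microglia sum 311 to 2306, with the lowest of each in the same mouse and the highest in different mice. The astrocyte sums of the groups, which are mostly Aldoc, overlap.

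The adenine nucleotide and phosphate carriers supply the ATP synthase. Of 5 tested, 1 rose with knockdown under saline and 0 passed under morphine. Slc25a3, the phosphate carrier, was 862, 327 and 371 normalized CPM in Ctrl + Saline mice and 1042, 921, 907, 949 and 918 in Kdm7a-shRNA + Saline mice. In the other groups it was 877, 927, 787 and 867 with Ctrl + Morphine and 820, 848, 845 and 764 with Kdm7a-shRNA + Morphine. Ctrl + Saline replicates 2 and 3 were thus below every other mouse, and replicate 1 was like the mice of the other groups. The log2 fold change under saline was 0.87 (SE 0.217, edgeR adjusted p = 0.0106), and the call was lost without replicate 2 (0.62, adjusted p = 0.0592) or replicate 3 (0.65, adjusted p = 0.0859). Slc25a4 and Slc25a5, the ADP/ATP translocases, had log2 fold changes of −0.28 and −0.21 under saline and 0.16 and 0.07 under morphine and did not pass.

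**Figure D4:**
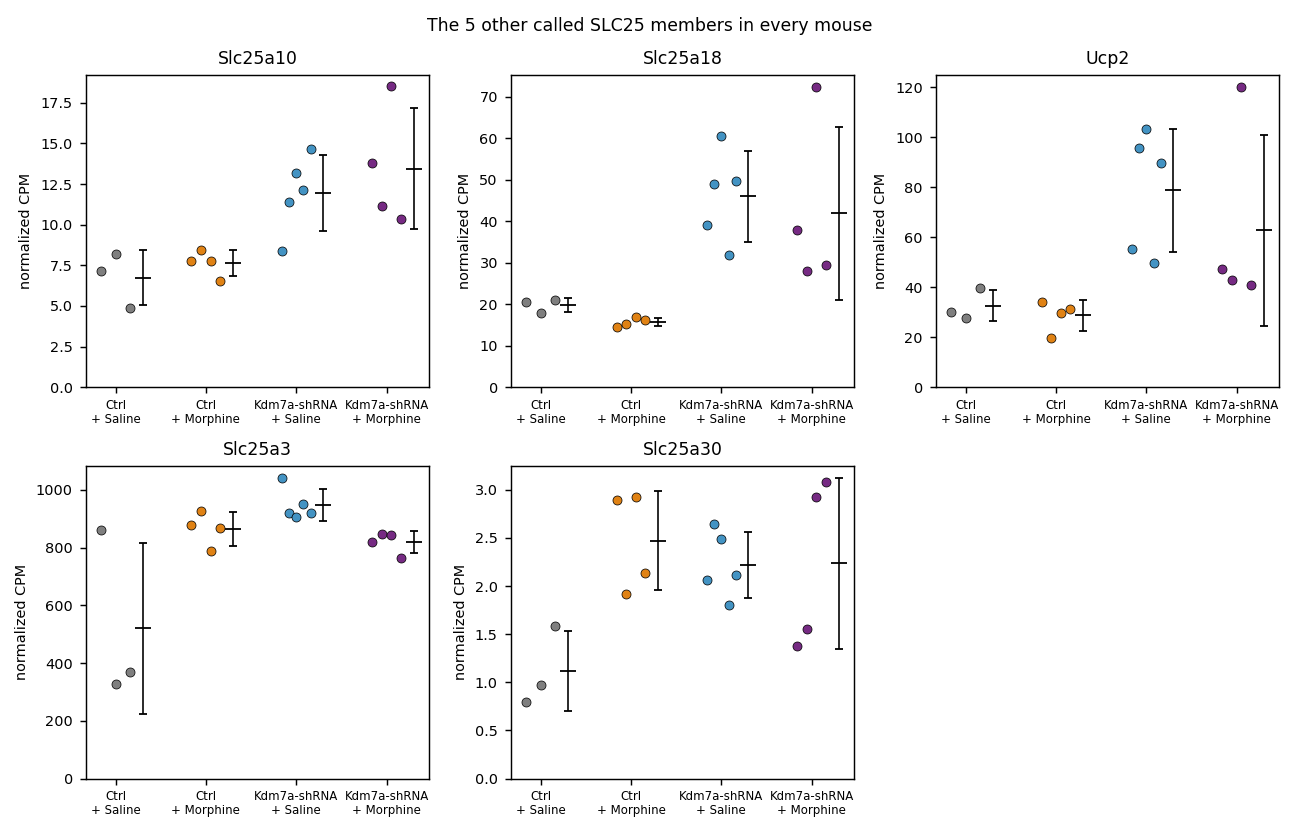
Slc25a10, Slc25a18, Ucp2, Slc25a3 and Slc25a30 in normalized CPM, 1 point per mouse, by group, with the mean and SD as a bar. Slc25a18 and Ucp2 are higher in all 9 knockdown mice than in all 7 Ctrl mice, and Slc25a3 is low only in 2 Ctrl + Saline mice.

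Outside these groups few members moved. Besides Slc25a39 and Slc25a40, the iron and glutathione carriers include the mitoferrins Slc25a37 and Slc25a28, which bring in iron for haem and had log2 fold changes of 0.37 and 0.22 under saline and −0.01 and −0.35 under morphine, neither past the test. Of 4 other amino acid carriers, 0 passed, and the group ranged from 0.19 to 0.44 under saline and from −0.23 to 0.06 under morphine. They include Slc25a38, the glycine carrier of haem synthesis, and Slc25a44, which carries branched-chain amino acids. Of 10 carriers of cofactors, nucleotides and acyl groups, 0 passed, with a range of −0.15 to 0.18 under saline and −0.48 to 0.37 under morphine, where Slc25a33, a pyrimidine nucleotide carrier, was the lowest (edgeR adjusted p = 0.0763). Of 6 less defined carriers, 0 passed, and Slc25a34 had the lowest value, −1.09 under morphine (SE 0.356, edgeR adjusted p = 0.0622).

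The 9 members without a test had at most 13 reads in any mouse. Slc25a24 had 3 to 13 reads and Slc25a21 0 to 11. Slc25a31 and Slc25a43 reached 4 reads, Slc25a48 reached 3, Slc25a2, Slc25a41 and Ucp1 reached 2 and Slc25a54 reached 1. Ucp1, the uncoupling protein of brown fat, was at 0 in 13 of 16 mice.

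**Figure D5:**
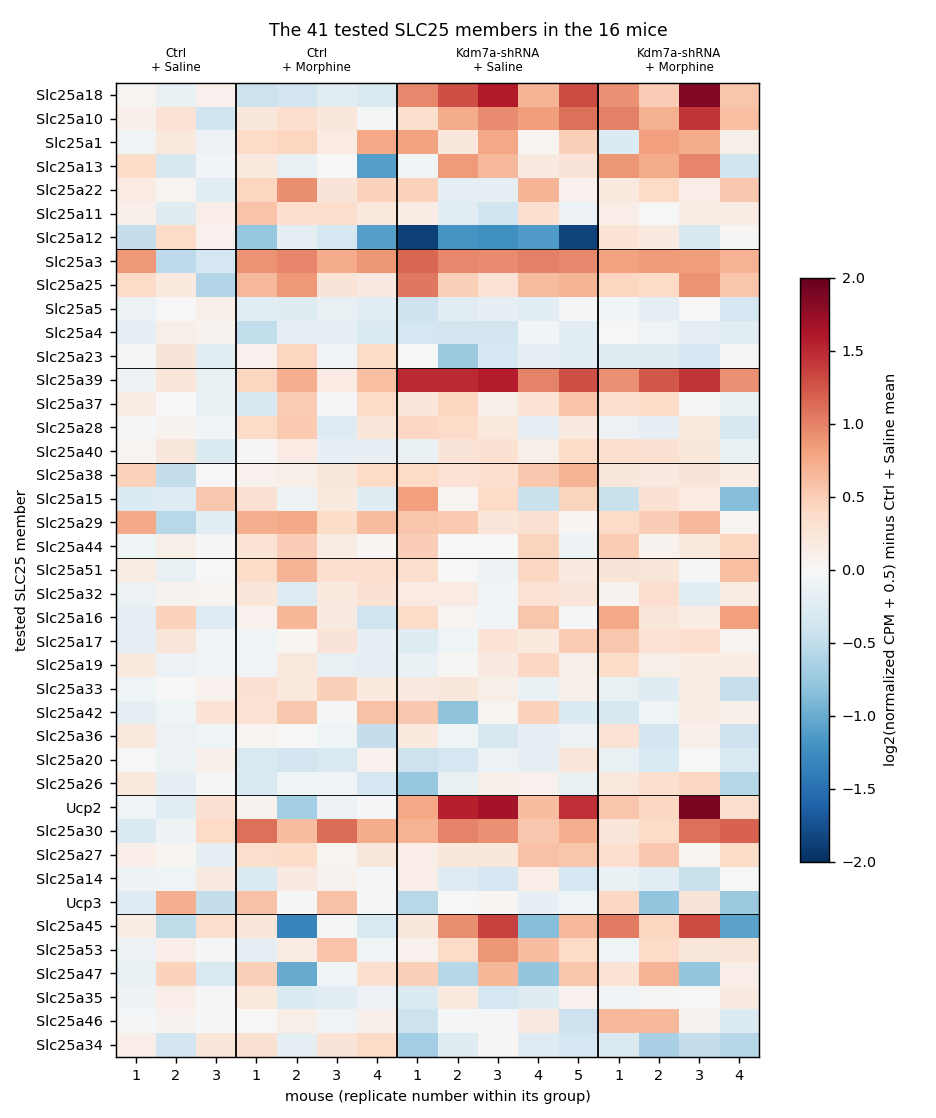
The 41 tested members (rows, in blocks of like roles) in the 16 mice (columns, by group) as log2(normalized CPM + 0.5) minus the Ctrl + Saline mean. Slc25a12 is blue in the 5 Kdm7a-shRNA + Saline mice and Slc25a39, Slc25a18, Slc25a10 and Ucp2 are red in the 9 knockdown mice. In the Ctrl + Morphine mice Slc25a12 is also blue and Slc25a39 also red, mostly in paler shades.

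Few members passed with morphine. Under the control virus 0 of 41 passed by edgeR and by DESeq2's Wald test. Of all tested genes, 0% were higher and 0% lower by edgeR, whereas DESeq2 called 185 of 18826. Under the control virus 8 members (19.5%) had an unadjusted p under 0.05, against 11.7% of all genes. Without Slc25a12 and Slc25a39 there were 6 of 39 (15.4%). The smallest adjusted p was that of Slc25a3 (0.203), whose Ctrl + Saline mice are described above. Without Ctrl + Saline replicate 1 it was the 1 member called. Slc25a30 had a log2 fold change of 1.14 (SE 0.350, edgeR adjusted p = 0.208) and did not overlap between the groups. Under knockdown 1 of 41 members passed, against 0.00531% of all genes higher and 0% lower, and that gene was Slc25a12, on which the choice was made. Its call held in 2 of 9 fits with a mouse left out. By DESeq2, 20 of 18826 tested genes passed for morphine under knockdown. Among the 39 members without Slc25a12 and Slc25a39, 0 passed by edgeR or DESeq2, and 1 had an unadjusted p under 0.05. Over the 41 members 2 did (4.88%), against 7.02% of all genes.

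The interaction is the difference between the knockdown effect under morphine and that under saline. By edgeR it was called for 1 member, Slc25a12, at a log2 value of 2.08, against 0.0106% of all genes higher and 0.0744% lower, which is again a description. That call held in 8 of 16 fits with a mouse left out. For Slc25a39 the value was −0.74 (SE 0.246), also a description. By DESeq2, 217 of 18826 tested genes were called for the interaction. Of the 39 members other than Slc25a12 and Slc25a39, 0 were called by edgeR or DESeq2, and 5 (12.8%) had an unadjusted p under 0.05. Over the 41 members there were 7 (17.1%), against 10.7% of all genes.

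Genes that work beside the carriers were counted from lists chosen by hand. Over all tested genes, 7.43% were higher and 9.31% lower with knockdown under saline (9.12% and 2.98% of known genes), and 2.86% and 4.83% under morphine (3.43% and 1.29%). Of 4 malate-aspartate shuttle enzymes, 0 passed in any of the 4 comparisons, with medians of −0.13 and 0.04 for knockdown under saline and morphine. Of 13 genes of the TIM22 pathway, which inserts carriers into the inner membrane, 0 rose and 1 fell in both knockdown comparisons, the chaperone Timm10 (−1.02 under saline and −0.63 under morphine). Of 15 genes of glutathione synthesis and use, 5 rose and 1 fell under saline and 2 rose under morphine. Chac1, which degrades glutathione, had log2 fold changes of 2.24 and 1.33, Gpx1, a glutathione peroxidase, 0.85 and 0.63, and Gss, glutathione synthetase, −0.98 under saline. Of 20 genes of haem synthesis and iron-sulphur assembly, 2 rose (Fech, ferrochelatase, 0.84, and Hscb, a cochaperone of cluster assembly, 1.08) under saline, and 1 rose under morphine (Hscb, 0.77). Of 6 tested mitochondrial one-carbon enzymes, Mthfd2 (1.67) and Shmt2 (1.72) rose under saline and Mthfd2 (1.38) under morphine. Of 20 other mitochondrial transporters, 1 rose under saline, the sideroflexin Sfxn5 (0.63), and 0 passed under morphine. With morphine 0 genes of these lists passed under either virus by edgeR.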

How the data were processed

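RNA of the mPFC of 16 mice was prepared by the authors with an Oxford Nanopore cDNA-PCR kit. Per the paper's methods and the submitters' processing notes, the authors filtered reads, kept full-length ones, clustered them on mm10 with minimap2 and Pinfish, and counted them; the strand used in counting is not given in the sources used here. The deposited count is the number of reads the authors assigned to a gene, and the deposited CPM is that count relative to the total of its column, which was checked to within 4.99e-06. The software was edgeR 4.0.16 and DESeq2 1.42.0, with limma 3.58.1, under R 4.3.3. After filterByExpr, counts were scaled with TMM factors (1.02 to 1.07 in Ctrl and 0.913 to 0.991 in knockdown mice) and tested with edgeR's quasi-likelihood test in 1 fit of the 4 groups. Benjamini-Hochberg adjustment ran over 18826 genes. A gene passed at an adjusted p under 0.05 and a fold of at least 1.5. Standard errors follow from the F statistic, and intervals are 1.96 SE.

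The members, gene lists and role groups were chosen with earlier results of these data known. Named were Slc25a12 and Slc25a39, every member that passed, Slc25a13 and Slc25a40, untested members by count, and up to 4 genes of each list that passed; other members are named as examples of their group. Positions are from GENCODE vM21 (GRCm38). Slc25a10, Slc25a18 and Ucp2 share exon bases with a gene on the other strand (555 bases with Gm11788, 32 with Atp6v1e1 and 305 with Dnajb13), and Slc25a5 has a named pseudogene, so that their reads can be shared. Alternatives were RLE factors, library size only, no filter, at least 10 counts in every mouse, the compared groups alone, DESeq2, the replicate number as a block, known genes only and each mouse left out. The fit was tested on simulated data. Mice are taken as separate animals from the labels. One result of the list of haem synthesis and iron-sulphur assembly is not reported here.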

Additional observations from a re-analysis of the deposited data

Results flagged for a closer look

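Among 27 groups of 4 or 5 mice examined over the 7 members that passed and Slc25a13 and Slc25a40, 1 mouse lay far from the others of its group, and chance alone flags about 1 in 20 groups. Ucp2 was 120 normalized CPM in Kdm7a-shRNA + Morphine replicate 3, against 41.1 to 47.3 in the other mice of that group. The summed microglia markers of the same mouse were also the highest of its group, at 2183 normalized CPM, and their part in the value was not tested.

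The effect of knockdown on Slc25a12 differed between treatments, with a log2 interaction of 2.08. The gene was chosen on mice that enter this value, so it is a description.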

How the results depend on the processing

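With 1 mouse left out at a time, the number of members called was 4 to 7 for knockdown under saline (4 without Ctrl + Saline replicate 2 or 3), 1 to 5 for knockdown under morphine, 0 to 1 for morphine under control virus, 0 to 1 for morphine under knockdown and 0 to 2 for the interaction. Knockdown under morphine kept 1 member, Slc25a18, without Kdm7a-shRNA + Morphine replicate 3 or Ctrl + Morphine replicate 1, 3 or 4. Morphine under knockdown called 0 members when the compared groups were fitted alone and 0 with the replicate number as a block. Same-numbered mice of different groups deviated with correlations of −0.10 to 0.39 (median 0.01) over 21 pairs, 6 of them over 0.1. Differently numbered mice were not correlated for reference, so these values cannot decide whether the numbers pair the mice. With the block the other 4 counts stayed within 1.5 times.

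Signs that turned were all of values that had not passed. With a mouse left out, Slc25a10 ran from −0.029 to 0.34 for morphine under control virus, from −0.028 to 0.28 for morphine under knockdown and from −0.20 to 0.22 for the interaction. Slc25a18 ran from −0.54 to 0.024 for morphine under knockdown and from −0.21 to 0.36 for the interaction. Slc25a30 ran from −0.29 to 0.036 for knockdown under morphine and from −0.14 to 0.19 for morphine under knockdown, with −0.033 under the replicate block. Ucp2 ran from −0.67 to 0.018 for the interaction. The median of the members for knockdown under morphine was −0.04 with library size only. For morphine under knockdown the median was −0.023 with no filter and ran from −0.018 to 0.063 with a mouse left out. Of 39 counts of called members under the other alternatives, 37 were within 1.5 times. The causes were not tested. With 3 to 5 mice a group and few reads for Slc25a13 and Slc25a30, small changes could not be resolved.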
